A study of Mus musculus with 18 samples.

Results

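The splicing factor genes of 5 families were measured in the hippocampus of mice exposed to intermittent hypoxia or reared for longer. A gene belonged to the set when its symbol started with Hnrnp, Srsf, Sf3a, Sf3b, Prpf or Snrp and the array carried a probe set (a group of probes for a single transcript end) annotated to that gene alone. This gave 59 genes out of 18193 genes with such a probe set. They comprised 19 hnRNP genes, 10 SR genes (symbols in Srsf), 9 genes of splicing factor 3 (Sf3a and Sf3b, here SF3), 12 Prpf genes and 9 Snrp genes. Where a gene had several, the brightest on average over the 18 arrays stood for it. All 59 genes had a mean signal above 20, the minimum for testing, as had 11656 genes of the series. Another 5 genes with such symbols, among them Hnrnpa3, Snrpa, Snrpd1 and Snrpd2, lay on probe sets shared with other genes and were left out of the counts.

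All groups were male C57BL/6J mice with 3 arrays each, and mice entering the experiments were 10 weeks old. For the 12m group no separate starting age is stated. IH28D mice underwent intermittent hypoxia treatment (IHT) for 28 days and were set against Ctrl28 mice, which were reared for 28 days in normoxia. 12m mice had been reared for 12 months without IHT, IH5D mice received IHT for 5 days, and IH5DR2 mice received IHT for 5 days and then spent 64 h in normoxia. These groups were set against untreated Ctrl mice, and IH5DR2 mice also against IH5D mice. During IHT, nitrogen flowed for 1 min and room air for 2 min in each 3 min cycle, repeated over 8 h daily, so that inspired oxygen swung between 21% and 5%. IH5D and IH28D mice were killed directly after the last session. The 12m and Ctrl groups differ in age and not in treatment, and the labels do not say whether each array came from a separate mouse, so p-values reflect no more than the variation among arrays, which may be technical.

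Introns are removed from pre-mRNA by the spliceosome, which is built on each intron from small nuclear ribonucleoproteins (snRNPs) and many accessory proteins. The Snrp genes encode proteins bound to the small nuclear RNAs, including the Sm proteins that form a ring around them. SF3 is the part of the U2 snRNP that holds the branch point, and Prpf genes carry the names of yeast pre-mRNA processing factors, many of them parts of the U1 snRNP or of the U4/U6.U5 tri-snRNP. SR proteins bind exons and recruit the machinery to nearby splice sites, whereas hnRNP proteins coat the transcript and often repress or shift splice site use. Neurons make wide use of alternative splicing, and several of these regulators control the splicing of their own transcripts.

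The deposited values were log2 MAS5 signals, and the signals below are unlogged. Every array had a trimmed mean of 100.03 or 100.04, and correlations between arrays were 0.924 to 0.983 within groups. A pair of arrays stood apart. On 12m array 3, markers of hippocampal neurons averaged 6.5 on the log2 scale, against 8.2 to 8.66 on the other arrays, and markers of the striatum averaged 7.77, against 5.64 to 6.33 elsewhere. On Ctrl28 array 1, the log2 gap between the 3′ and 5′ probe sets of the actin and Gapdh controls, a sign of RNA quality, was 2.388, against 0.822 and 0.966 on the other Ctrl28 arrays, 0.617 to 0.861 on 12m arrays and 0.328 to 0.535 on the rest. Choroid plexus markers averaged 3.12 to 4.17 in 12m arrays and 5.08 to 8.43 in Ctrl arrays, and 8 of 9 fell. In 12m mice 5 of 8 microglia markers fell and 1 rose (mean log2 level 7.44 to 7.6, against 7.63 to 7.85 in Ctrl mice), 3 of 5 oligodendrocyte markers fell and 1 rose (9.88 to 9.96, against 10.26 to 10.5), 3 of 8 markers of hippocampal neurons fell and 1 rose, 2 of 6 astrocyte markers rose and 2 fell, and 0 of 5 endothelial markers passed. The share of these differences in the results below was not tested, apart from the fits without each array and with the gap as a covariate. In whole tissue, fewer cells of a type and less RNA per cell cannot be told apart.

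Ctrl28 array 1 and Ctrl array 2 often lay at the ends of the range for the splicing factor genes. Ctrl28 array 1 had the highest signal of all 18 arrays for 7 of 9 Snrp genes and 5 of 9 SF3 genes, and the lowest for 5 of 10 SR genes. Over all 11656 genes tested it was highest for 16.6% and lowest for 9.87%. Ctrl array 2 had the lowest signal for 21 of the 59 genes, among them 10 of 19 hnRNP and 6 of 12 Prpf genes, and the highest for 6, whereas over all genes it was lowest for 15.1% and highest for 19.3%. This array enters every comparison with Ctrl. Without it, 17 of the 59 genes rose and 13 fell in 12m mice (all genes 17.7% and 22%). 12m array 3 was highest for 3 and lowest for 4 of the 59 genes, whereas over all genes it was highest for 10.1% and lowest for 13.2%. Mean log2 signal of the SR family was 8.315 on Ctrl28 array 1, below the 9.116 and 9.106 of the other Ctrl28 arrays and below all 3 Ctrl arrays (8.391 to 8.591). Mean log2 signal of the SF3 family was 9.186 on this array, against 8.611 and 8.609 on the others of its group.

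**Figure D1:**
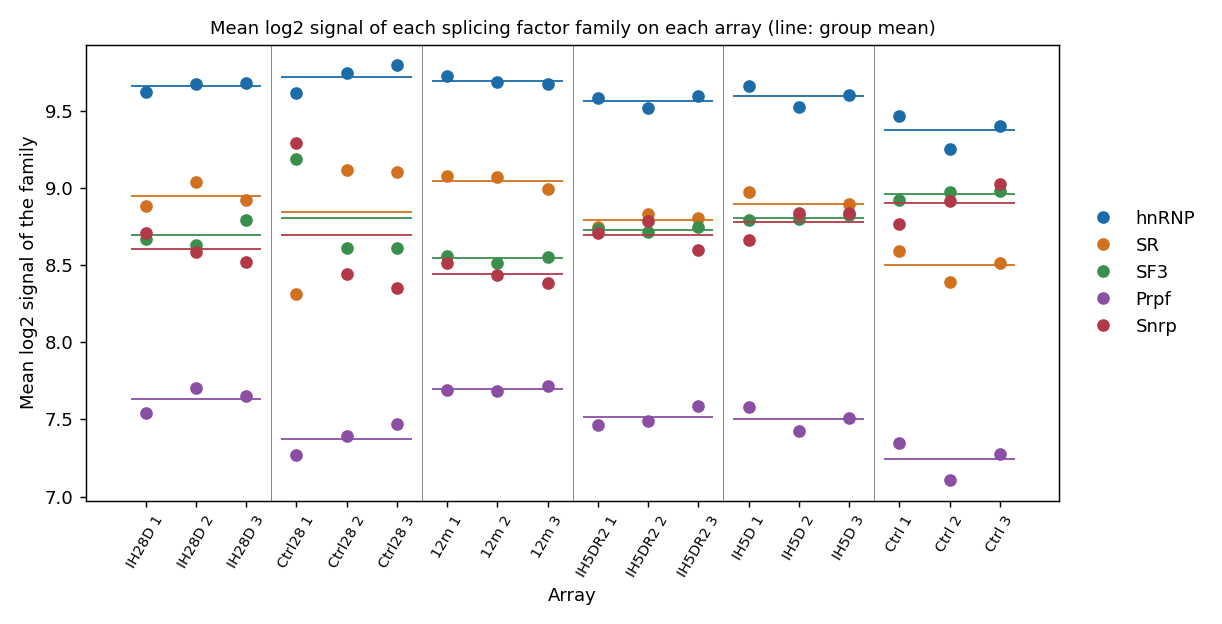
Mean log2 signal (vertical axis) of the hnRNP, SR, SF3, Prpf and Snrp genes on each of the 18 arrays (horizontal axis), with the mean of each group as a line. On Ctrl28 array 1 the SF3 and Snrp means are the highest of all arrays (9.186 and 9.29) and the SR mean is the lowest (8.315).

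With 12m mice set against Ctrl mice, hnRNP and SR genes were mostly higher and SF3 and Snrp genes mostly lower, while Prpf genes were split. Of the 59 genes, 19 rose and 18 fell by limma with Benjamini-Hochberg adjustment over all genes at 0.05, against 21.7% and 31.6% of all genes tested. By family, 9 hnRNP genes rose and 2 fell, 5 SR genes rose and 2 fell, 1 SF3 gene rose and 6 fell, 4 Prpf genes rose and 4 fell, and none of the Snrp genes rose and 4 fell. The median log2 fold change was 0.31 for hnRNP genes, 0.47 for SR genes, -0.54 for SF3 genes, -0.05 for Prpf genes and -0.55 for Snrp genes, and -0.23 for all genes tested. Before adjustment, p was below 0.05 for 42 of the 59 genes and for 6931 of all 11656. The difference between families was not tested.

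With IH5D mice set against Ctrl mice, 10 genes rose and 0 fell (all genes 5.4% and 1.12%), and before adjustment p was below 0.05 for 23 of the 59 genes and for 3375 of all 11656. The risers were 3 hnRNP, 4 SR and 3 Prpf genes. With IH5DR2 mice set against Ctrl mice, 6 genes rose and 1 fell (all genes 4.38% and 1.24%, 5.61% in all). Between IH5DR2 and IH5D mice, 0 of the 59 genes and 0 of all genes (0%) passed by limma, and 2 of the 59 had p below 0.05 before adjustment, as had 418 of all genes. With IH28D mice set against Ctrl28 mice, 3 genes rose and 4 fell (all genes 6.05% and 2.45%, 8.49% in all). Between Ctrl28 and Ctrl mice, neither of which received IHT, 23 genes rose and 9 fell (all genes 16.9% and 21%). IH5D, IH5DR2, 12m and Ctrl28 mice were all set against the same 3 Ctrl arrays, so these comparisons share those arrays.

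**Figure D2:**
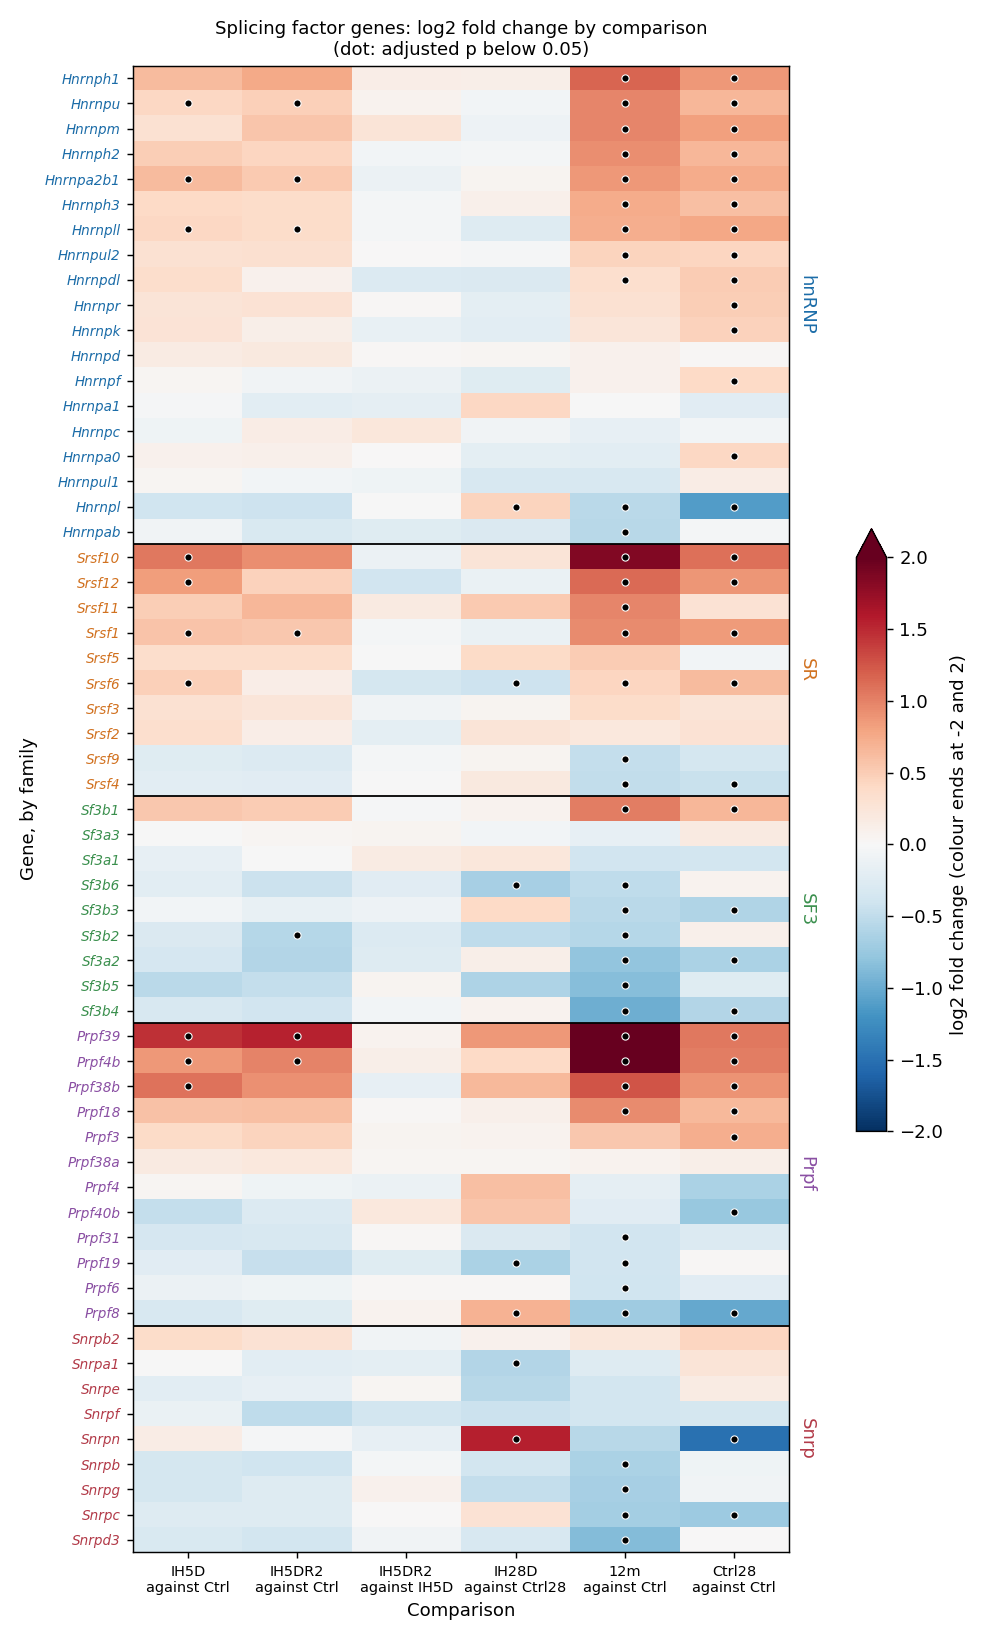
Log2 fold change of each of the 59 genes (rows, by family and then by the 12m change) in 6 comparisons (columns), with a dot where the limma adjusted p was below 0.05 and colours ending at -2 and 2. The hnRNP and SR rows are mostly red and the SF3 and Snrp rows mostly blue in the 12m column, the column of IH5DR2 against IH5D has no dot, and Snrpn is dark blue in Ctrl28 against Ctrl and dark red in IH28D against Ctrl28.

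Among SR genes, Srsf10, which encodes a splicing repressor activated by dephosphorylation, had the largest log2 fold change in 12m, IH5D and IH5DR2 mice against Ctrl (Entrez gene 14105, chromosome 4). Its signal was 317, 258 and 242 in 12m arrays, 131, 165 and 136 in IH5DR2 arrays, 208, 123 and 149 in IH5D arrays, and 87.7, 73.6 and 66.2 in Ctrl arrays. No Ctrl array reached any array of the other 3 groups. The log2 fold change was 1.84 ± 0.30 (SE) in 12m mice (adjusted p = 0.000159) and 1.05 ± 0.30 in IH5D mice (adjusted p = 0.0481). In IH5DR2 mice it was 0.93 and did not pass. These values are from the brightest probe set of Srsf10. The others differed less between IH5D and Ctrl mice, with means of 57.79, 28.61 and 65.74 against 47.21, 25.9 and 42.64. Srsf12, a close relative of Srsf10, had 114, 144 and 127 in 12m arrays, 97, 90.3 and 125 in IH5D arrays and 62.2, 55.2 and 56.9 in Ctrl arrays, a rise of 1.14 ± 0.22 in 12m mice and of 0.83 ± 0.22 in IH5D mice on the log2 scale.

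Srsf1, the founding SR protein, had 949, 959 and 835 in 12m arrays, 725, 614 and 717 in IH5DR2 arrays, 697, 726 and 680 in IH5D arrays and 522, 420 and 482 in Ctrl arrays. It rose by 0.95 in 12m mice, by 0.53 in IH5DR2 mice and by 0.57 in IH5D mice on the log2 scale (adjusted p = 4.8e-05, 0.0339 and 0.0262). Srsf11, which contacts U2 auxiliary factor, had 869, 904 and 869 in 12m arrays and 475, 402 and 465 in Ctrl arrays, and rose by 0.98 (adjusted p = 0.0034). Srsf6 rose in 12m mice (0.43) and in IH5D mice (0.48), with 566, 544 and 509 in IH5D arrays and 415, 357 and 393 in Ctrl arrays. Srsf4, close in sequence to Srsf6, fell by 0.50 in 12m mice, with 421, 388 and 366 against 515, 552 and 592 in Ctrl mice. Srsf9 fell by 0.48 in 12m mice, and did not pass without 12m array 3 (-0.36) or without Ctrl array 2 (-0.44). On their brightest probe sets, the log2 fold changes of Srsf2, Srsf3 and Srsf5 in 12m mice were 0.22, 0.36 and 0.51 and did not pass, and the 12m and Ctrl arrays of Srsf2 overlapped. All other probe sets of Srsf3 also averaged higher in 12m than in Ctrl mice, among them 291.2 against 185.8 and 381.1 against 253.1. Srsf7 was not analysed here.

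Of the hnRNP genes, Hnrnpu, which binds both RNA and chromatin, had the smallest adjusted p in 12m mice (1.3e-05). Its signal was 1820, 1900 and 1970 in 12m arrays, 1250, 1350 and 1430 in IH5DR2 arrays, 1330, 1200 and 1300 in IH5D arrays and 1110, 880 and 905 in Ctrl arrays (Entrez gene 51810, chromosome 1). The rise was 0.98 ± 0.11 in 12m mice, 0.48 ± 0.11 in IH5DR2 mice and 0.41 ± 0.11 in IH5D mice on the log2 scale. Hnrnpa2b1, which binds RNA carried into neuronal processes, had 2070, 1790 and 1700 in 12m arrays, 1380, 1440 and 1530 in IH5DR2 arrays, 1580, 1510 and 1610 in IH5D arrays and 1130, 932 and 980 in Ctrl arrays. Every array of these groups was above every Ctrl array, and the log2 changes were 0.87, 0.52 and 0.63. Hnrnph1, which binds runs of G, had 1410, 1300 and 1140 in 12m arrays and 667, 490 and 565 in Ctrl arrays, a rise of 1.17 ± 0.26.

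Hnrnpm rose by 0.97 in 12m mice (244, 248 and 239, against 127, 116 and 129 in Ctrl mice), and Hnrnph2, Hnrnph3, Hnrnpll, Hnrnpul2 and Hnrnpdl also rose, by 0.33 to 0.93. The 2 hnRNP genes that fell were Hnrnpl, which binds CA-rich RNA, and Hnrnpab. Hnrnpl had 378, 376 and 342 in 12m arrays and 533, 554 and 512 in Ctrl arrays, a fall of 0.55, so Hnrnpl and its relative Hnrnpll (687, 717 and 698, against 423, 408 and 437) passed in opposite directions. Hnrnpab fell by 0.56, with 1330, 1260 and 1250 in 12m arrays and 1760, 1860 and 2040 in Ctrl arrays. On their brightest probe sets Hnrnpc, Hnrnpd, Hnrnpk and Hnrnpa1 had log2 fold changes of -0.16, 0.09, 0.24 and -0.0001 and did not pass. The 12m and Ctrl arrays of all but Hnrnpk overlapped there. The other probe sets of Hnrnpd and Hnrnpa1 rose, as given below.

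In 12m, IH5D and IH5DR2 mice against Ctrl, the largest log2 fold change of the 59 genes was that of a Prpf gene, Prpf39. In IH28D against Ctrl28 and in Ctrl28 against Ctrl it was that of Snrpn (1.56 and -1.49). Prpf39, whose yeast namesake belongs to the U1 snRNP, had 182, 221 and 218 in 12m arrays, 95.8, 97.2 and 77.7 in IH5DR2 arrays, 99.8, 77.5 and 81.5 in IH5D arrays and 38.1, 23.9 and 32.9 in Ctrl arrays (Entrez gene 328110, chromosome 12). The 12m and Ctrl arrays differed 6.64-fold (log2 2.73 ± 0.34, adjusted p = 2e-05), IH5DR2 and Ctrl arrays 2.89-fold (adjusted p = 0.0234) and IH5D and Ctrl arrays 2.76-fold (adjusted p = 0.0257). These values are from the brightest probe set. The next brightest averaged 35.24 in IH5DR2, 40.61 in IH5D and 31 in Ctrl mice, with overlapping arrays. The dimmest averaged 19.8, 18.58 and 12.38. Prpf4b, a kinase that phosphorylates spliceosomal proteins, had 440, 458 and 492 in 12m arrays, 188, 203 and 221 in IH5DR2 arrays, 223, 179 and 164 in IH5D arrays and 128, 75.5 and 111 in Ctrl arrays. It was 4.51-fold higher in 12m mice, 1.98-fold in IH5DR2 mice and 1.82-fold in IH5D mice. Prpf38b had 189, 140 and 154 in 12m arrays, 169, 123 and 139 in IH5D arrays and 86.1, 58.1 and 60 in Ctrl arrays, and rose 2.38-fold and 2.13-fold. In IH5DR2 arrays it had 102, 137 and 145 and did not pass. Prpf18, named after a factor of the second step of splicing, rose by 0.95 on the log2 scale in 12m mice.

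The Prpf genes that fell in 12m mice encode core parts of the spliceosome. Prpf8, the protein at the centre of the U5 snRNP, had 544, 505 and 519 in 12m arrays and 814, 942 and 827 in Ctrl arrays, a fall of 0.72 ± 0.11 (adjusted p = 0.000112). Prpf6 (220, 218 and 201, against 299, 275 and 266) and Prpf31, both of the tri-snRNP, fell by 0.39 and 0.38. Prpf19, the ubiquitin ligase of its own complex, also fell by 0.39, with 2150, 2110 and 2270 against 2610, 3000 and 2960. Prpf19 lay at the threshold (adjusted p = 0.0475), and its fall did not pass without any one of the 3 12m arrays (-0.37 to -0.42), without Ctrl arrays 2 (-0.35) or 3 (-0.36), or without any one of the IH5D, IH5DR2 or IH28D arrays (-0.39).

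**Figure D3:**
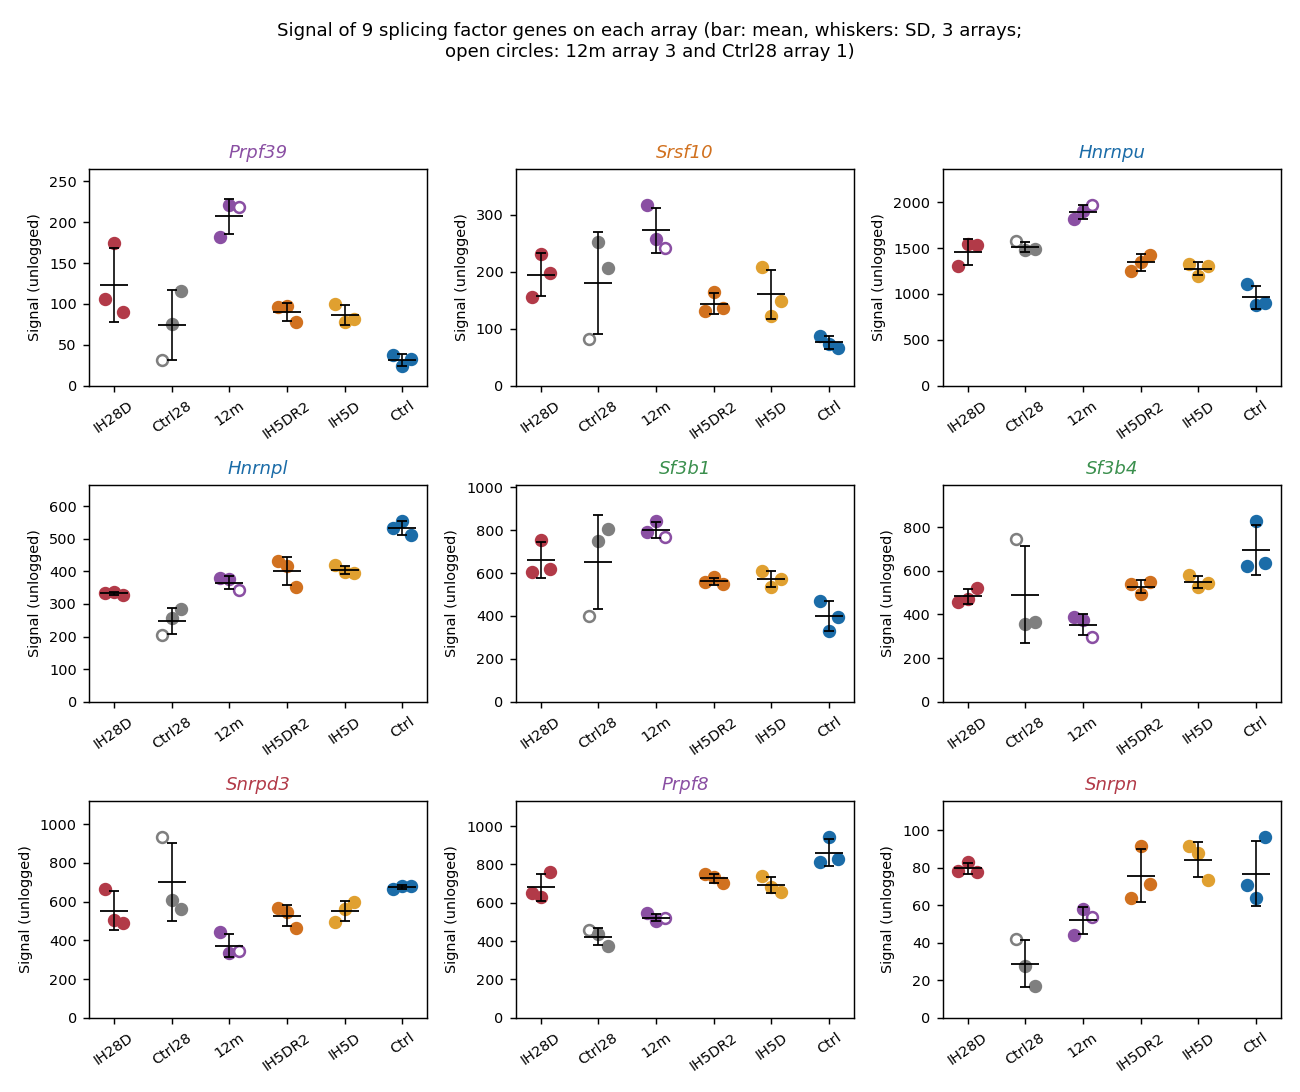
Unlogged signal (vertical axes, from 0) of 9 genes on each array by group (horizontal axes), with the mean and SD of 3 arrays and open circles for 12m array 3 and Ctrl28 array 1. Prpf39, Srsf10 and Hnrnpu are lowest in Ctrl and highest in 12m, Sf3b4, Snrpd3 and Prpf8 are lower in 12m than in Ctrl, and Snrpn is lowest in Ctrl28.

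Within SF3, Sf3b1 moved against the other genes. Sf3b1, the subunit that clamps the branch point, had 791, 842 and 768 in 12m arrays and 470, 330 and 393 in Ctrl arrays, a rise of 1.02 ± 0.20 (adjusted p = 0.000502). In IH5DR2 arrays it had 556, 580 and 550 and in IH5D arrays 611, 533 and 573, all above the Ctrl arrays, without passing (log2 0.51 and 0.54). Sf3b4, which binds pre-mRNA upstream of the branch point, had 387, 375 and 298 in 12m arrays and 621, 828 and 638 in Ctrl arrays, a fall of 0.97 ± 0.21 (adjusted p = 0.00113). Sf3b5, a small subunit, had 676, 491 and 652 in 12m arrays and 920, 1140 and 1200 in Ctrl arrays, a fall of 0.85 ± 0.20. Sf3a2 fell by 0.78, with 368, 473 and 388 against 653, 766 and 687.

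Sf3b2 fell by 0.57 in 12m mice, with 581, 657 and 640 against 918, 928 and 942 in Ctrl mice. It was also the gene that fell in IH5DR2 mice (670, 610 and 606, log2 -0.57, adjusted p = 0.0496). Sf3b3 fell by 0.54 in 12m mice, but not without 12m array 2 (-0.44) or Ctrl array 3 (-0.49). Sf3b6, the subunit that touches the branch point adenosine, fell by 0.50 (714, 729 and 656, against 909, 1080 and 982), but not without 12m array 3 (-0.46), Ctrl array 2 (-0.43) or Ctrl array 3 (-0.51). Sf3a1 and Sf3a3 had log2 fold changes of -0.38 and -0.17 and did not pass. In IH5D mice none of the 9 SF3 genes passed, and 1 of them had a log2 fold change above 0.

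The Snrp genes that fell in 12m mice were 3 of the Sm ring and Snrpc of the U1 snRNP. Snrpd3, an Sm protein, had 443, 332 and 344 in 12m arrays and 664, 682 and 682 in Ctrl arrays, a fall of 0.87 ± 0.18 (adjusted p = 0.000713). Snrpb, the Sm B protein, had 560, 534 and 608 in 12m arrays and 790, 996 and 855 in Ctrl arrays, a fall of 0.63, and Snrpg fell by 0.66 (845, 751 and 758, against 1010, 1430 and 1310). Snrpc had 383, 340 and 353 in 12m arrays and 465, 646 and 622 in Ctrl arrays, a fall of 0.67 that did not pass without 12m array 2 (-0.64), Ctrl array 2 (-0.59) or Ctrl array 3 (-0.61). Snrpa1 and Snrpb2, partner proteins of the U2 snRNP, had log2 fold changes of -0.26 and 0.23 and did not pass. None of the 9 Snrp genes passed in IH5D or in IH5DR2 mice (median log2 -0.21 and -0.26).

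Without 12m array 3, 19 genes rose and 13 fell (all genes 2425 and 3311 of 11656), and 31 of the 37 calls were kept. Those lost were Hnrnpdl, Prpf19, Prpf31, Sf3b6, Snrpg and Srsf9. Without Ctrl28 array 1, whose spread enters the fit, 23 rose and 23 fell (all genes 23.6% and 36.9%), and the 37 calls were kept. With the gap of 3′ and 5′ controls as a covariate, 23 rose and 26 fell (all genes 24.1% and 38.4%). Of these, 10 and 4 were hnRNP, 8 and 2 SR, 1 and 7 SF3, 4 and 5 Prpf, and 0 and 8 Snrp genes. The slope of the gap rests mainly on Ctrl28 array 1, so this fit and the fit without that array are not separate checks. Of 29 named changes in 12m mice, 24 passed without any one of the 18 arrays. With arrays centred on the median of all probe sets, the median log2 fold change of all genes was -0.47 and that of the 59 genes -0.24, and 16 genes rose and 24 fell (all genes 16.2% and 45.6%). By family, 7 hnRNP genes then rose and 4 fell, 4 SR genes rose and 2 fell, 1 SF3 gene rose and 8 fell, 4 Prpf genes rose and 4 fell, and 0 Snrp genes rose and 6 fell. The other genes that did not pass in 12m mice were Hnrnpa0, Hnrnpf, Hnrnpr, Hnrnpul1, Prpf3, Prpf4, Prpf38a, Prpf40b, Snrpe, Snrpf and Snrpn, with log2 fold changes of -0.55 to 0.53. All other probe sets of Hnrnpr also averaged higher in 12m than in Ctrl mice, among them 611.6 against 460.7 and 109.9 against 45.15.

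The counts after 5 days of IHT depended on single arrays. The IH5D count of 10 fell to 0 without Ctrl array 2, Ctrl array 3, IH5D array 1 or IH5D array 3 and to 2 without IH5D array 2. Without the second and without the third Ctrl array, 0 of all 11656 genes passed by limma in this comparison. The IH5DR2 count of 7 fell to 0 without Ctrl array 2 or 3 or IH5DR2 array 2 or 3 and to 2 without IH5DR2 array 1, and was 11 without Ctrl28 array 3. Without Ctrl array 2, 0 of all 11656 genes passed by limma in the IH5DR2 comparison. For the other arrays named for this count, the share of all genes is not given here. Without Ctrl28 array 1, 19 genes rose and 6 fell in IH5D mice (all genes 1656 and 1071) and 15 rose and 10 fell in IH5DR2 mice (1592 and 1002). In that fit the risers in IH5D mice included 7 hnRNP, 7 SR, 1 SF3 and 4 Prpf genes, and the falls 1 hnRNP, 2 SF3, 2 Prpf and 1 Snrp gene. Same-numbered IH5D and Ctrl arrays deviated together. The labels state no pairing, and the block by array number within these groups was added after this was seen. Its counts are therefore not independent support. With that number as a block, 24 genes rose and 12 fell when the IH5D and Ctrl groups were fitted alone (all genes 16.7% and 18.4%), whereas 7 rose and 0 fell when all arrays were fitted (all genes 3.23% and 0.489%). The rise of Srsf10 in IH5D mice lay at the threshold and did not pass without any one of 13 arrays. With arrays centred on the median of all probe sets, 3 genes rose in IH5D mice (1.72% of all genes), and the median log2 fold change of the 59 genes was -0.02 in place of 0.09. In the block fit of the 2 groups alone, 10 hnRNP genes rose and 1 fell, 8 SR genes rose and 0 fell, 1 SF3 gene rose and 4 fell, 4 Prpf genes rose and 4 fell, and 1 Snrp gene rose and 3 fell.

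The IH5D and IH5DR2 comparisons share the Ctrl arrays. Prpf39, Prpf4b, Srsf1, Hnrnpa2b1, Hnrnpu and Hnrnpll passed in both, and Srsf10, Srsf12, Srsf6 and Prpf38b passed in IH5D mice and not in IH5DR2 mice. The difference between IH5DR2 and IH5D mice for these 4 genes was -0.12, -0.38, -0.35 and -0.17 on the log2 scale, and none passed, so a change of these genes over 64 h of normoxia was not detected.

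After 28 days of IHT, 7 genes passed. The Ctrl28 arrays carry later record numbers in the repository than all other arrays and no processing batch is given, so in each comparison with Ctrl28, this one included, a batch and the group cannot be told apart. Against Ctrl28 mice, Snrpn, Prpf8 and Hnrnpl rose in IH28D mice, and Sf3b6, Prpf19, Snrpa1 and Srsf6 fell. Snrpn encodes SmN, the Sm protein of brain, from an imprinted locus shared with Snurf. Its own probe set (Entrez gene 20646, chromosome 7) was dim, with 78.1, 83.1 and 77.7 in IH28D arrays and 41.9, 27.8 and 16.8 in Ctrl28 arrays, a difference of 1.56 ± 0.26 on the log2 scale (adjusted p = 0.00117). In Ctrl arrays it had 70.6, 63.6 and 96.2, so Ctrl28 was the low group. Of 6 further probe sets annotated to both Snurf and Snrpn, 4 averaged higher in IH28D than in Ctrl28 mice, 1 ran the other way and 1 lay below the minimum signal. The brightest averaged 4377 ± 239.1 in IH28D mice and 1858 ± 184.3 in Ctrl28 mice (SD, n = 3), and 4391 ± 254.9 in Ctrl mice. The others of these 4 averaged 4084, 2561 and 3177 in IH28D mice and 1333, 545.4 and 1385 in Ctrl28 mice. The probe set that ran the other way had 628.5 ± 21.45 in IH28D mice and 801.2 ± 118.2 in Ctrl28 mice. Prpf8 had 651, 630 and 759 in IH28D arrays and 458, 435 and 373 in Ctrl28 arrays (log2 0.69 ± 0.11, adjusted p = 0.0011), and Hnrnpl had 333, 338 and 328 in IH28D arrays and 205, 258 and 283 in Ctrl28 arrays (0.44 ± 0.12).

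The genes that fell in IH28D mice were high on Ctrl28 array 1. Sf3b6 had 740, 651 and 585 in IH28D arrays and 1500, 838 and 894 in Ctrl28 arrays, and Prpf19 had 1920, 1770 and 1880 against 4230, 2330 and 2450. Snrpa1 had 258, 280 and 265 against 470, 378 and 370, and Srsf6 had 453, 468 and 432 against 723, 525 and 572. Every IH28D array was below every Ctrl28 array for these 4 genes, as for 10 of the 59 genes in all and 11.3% of all genes tested. The 4 genes were picked by a test on the same arrays, so this separation is not added support. Their log2 fold changes were -0.67, -0.64, -0.59 and -0.42 with all arrays. Without Ctrl28 array 1 the first 3 of these still passed, at -0.40, -0.36 and -0.48, and Srsf6 (-0.28) and Hnrnpl (0.30) did not. That fit counted 9 genes that rose and 4 that fell (all genes 11.4% and 4.19%), and the added risers were Sf3b3, Sf3a1, Sf3a2, Sf3b4, Prpf40b, Snrpc and Srsf4. The count of 7 was 3 without IH28D array 2 and 3 without IH28D array 3, where Sf3b6 and Prpf19 did not pass. With the gap of 3′ and 5′ controls as a covariate, 9 genes rose and 5 fell (all genes 11% and 4.94%), and 2 of the 7 calls were kept. This fit too rests mainly on Ctrl28 array 1. Of 8 microglia markers, 3 rose in IH28D mice against Ctrl28 mice, and the part of this in the result was not tested.

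**Figure D4:**
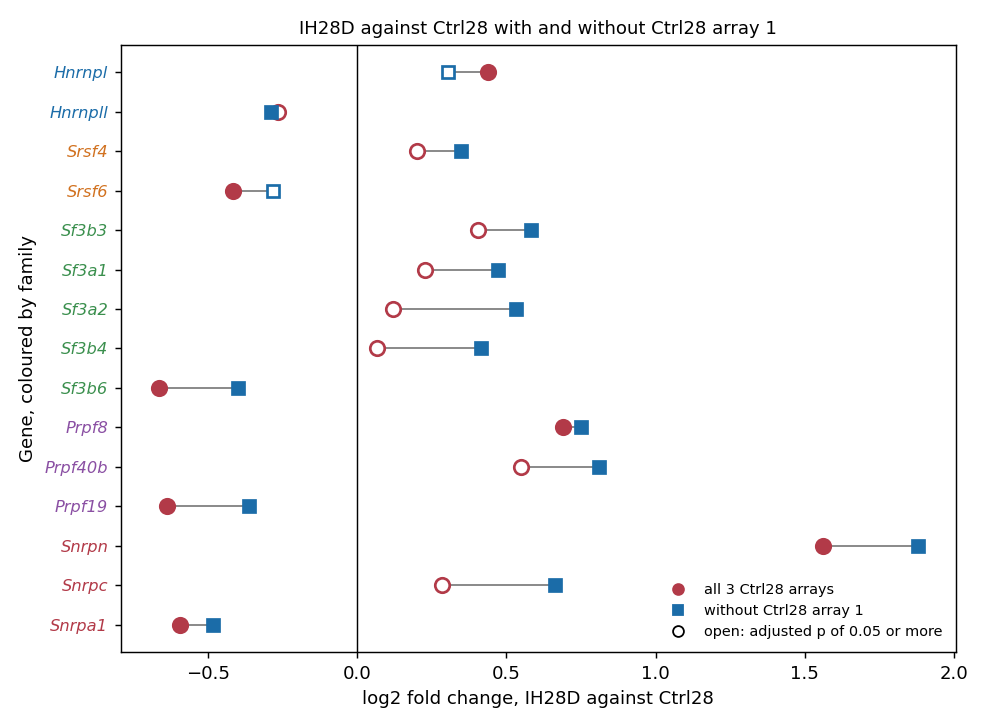
Log2 fold change of IH28D against Ctrl28 (horizontal axis) for the 15 genes that passed with all Ctrl28 arrays (circles) or without Ctrl28 array 1 (squares), with open symbols where the adjusted p was 0.05 or more. Snrpn and Prpf8 lie to the right of 0 and Sf3b6, Prpf19 and Snrpa1 to the left in both fits, while Sf3b4 is 0.07 with all arrays and 0.42 without array 1.

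The 28-day and 12-month results moved with the control. Set against Ctrl in place of Ctrl28, IH28D mice had 18 genes that rose and 9 that fell (all genes 17.5% and 15.8%), and the log2 fold change changed sign for 26 of 59 genes. Prpf39 (1.93), Prpf38b (1.55), Prpf4b (1.42) and Srsf10 (1.35) then rose most, and Prpf8 (-0.34) and Hnrnpl (-0.68) fell where they had risen against Ctrl28. Sf3b6, Prpf19 and Snrpa1 fell against both controls. Against Ctrl28 in place of Ctrl, 12m mice had 5 genes that rose and 9 that fell (all genes 8.04% and 8.3%). Prpf39 (1.67, adjusted p = 0.00416) and Prpf4b (1.15, adjusted p = 0.000884) rose and Snrpd3 (-0.88), Sf3b2 (-0.67), Sf3b5 (-0.60), Sf3b6 (-0.57), Snrpb (-0.54) and Hnrnpab (-0.52) fell against either control, whereas Hnrnpl fell against Ctrl and rose against Ctrl28 (0.57). Between 12m and IH28D mice 0 of the 59 genes passed by limma (54 of all genes, 0.463%, with 0.154% that rose and 0.309% that fell), and 10 had p below 0.05 before adjustment, as had 2064 of all genes. Against Ctrl28 mice, 3 genes rose and 1 fell in IH5D mice (all genes 6.06% and 1.61%, 7.67% in all), and 3 rose and 6 fell in IH5DR2 mice (all genes 8.42% and 2.75%).

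Whether the change after 28 days differed from the change after 5 days was tested by the limma contrast of the difference of IH28D from Ctrl28 mice and the difference of IH5D from Ctrl mice. For 4 of the 59 genes it was more positive and for 6 more negative after 28 days (all genes 6.57% and 3.08%, 9.65% in all). Srsf6 and Srsf1, which had risen after 5 days, and Snrpn and Prpf8 were among them. The 2 changes rest on different controls.

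Between Ctrl28 and Ctrl mice, hnRNP genes made up 13 of the 23 rises. In Ctrl28 mice 13 hnRNP genes rose and 1 fell, 4 SR genes rose and 1 fell, 1 SF3 gene rose and 3 fell, 5 Prpf genes rose and 2 fell, and none of the Snrp genes rose and 2 fell. Of all genes tested, 16.9% rose and 21% fell. Hnrnpll had 701, 726 and 749 in Ctrl28 arrays and 423, 408 and 437 in Ctrl arrays (log2 0.78 ± 0.10, adjusted p = 1.9e-05). Prpf8 (458, 435 and 373, against 814, 942 and 827) and Hnrnpl (205, 258 and 283, against 533, 554 and 512) fell by 1.03 and 1.11, and Snrpn fell by 1.49. Srsf10 had 81.1, 253 and 207 and Prpf39 had 31.2, 75.2 and 116 in Ctrl28 arrays, and for both genes Ctrl28 array 1 lay within the Ctrl range. Srsf10 (1.10) did not pass without Ctrl28 array 2 (0.78) or 3 (0.93), and Prpf39 (1.06) did not pass without Ctrl28 array 2 (0.95), Ctrl28 array 3 (0.64) or Ctrl array 2 (0.87). Without Ctrl28 array 1, 26 genes rose and 17 fell (all genes 23.8% and 29.5%), among them 8 SR genes that rose and 5 SF3 and 5 Snrp genes that fell. The count of 32 was 18 without Ctrl28 array 3 and 20 without Ctrl array 2. Of the cell type markers, 4 of 8 for microglia fell in Ctrl28 mice (mean log2 level 7.09 to 7.28, against 7.63 to 7.85 in Ctrl mice), 3 of 5 for oligodendrocytes fell and 1 rose (9.72 to 10.12, against 10.26 to 10.5), 3 of 6 for astrocytes rose and 1 fell (9.67 to 9.69, against 9.57 to 9.61), 2 of 8 for hippocampal neurons rose and 1 fell, and 1 of 5 for endothelial cells fell. Their part in the result was not tested.

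How far the probe sets of a gene shared a direction differed between comparisons. Of the 59 genes, 40 had more than 1 probe set above the minimum, 135 probe sets in all. In 12m against Ctrl the log2 fold changes of all probe sets had the same sign for 33 of these 40 genes. They had the same sign for 33 genes in IH5D and 28 in IH5DR2 against Ctrl, 26 in Ctrl28 against Ctrl, 17 in IH28D against Ctrl28 and 13 in IH5DR2 against IH5D. No gene had probe sets that passed both ways in these 6 comparisons. In 12m against Ctrl, 63 of the 154 probe sets of the 59 genes rose and 31 fell. Here p-values were adjusted over 19919 probe sets, of which 49.2% passed in either direction. Their share in each direction is not given here. The 5 probe sets of Hnrnpu rose by 0.98 to 2.38, the 4 of Hnrnpa2b1 by 0.87 to 1.97, the 3 of Prpf39 by 1.87 to 2.73 and the 5 of Prpf4b by 1.09 to 2.17. Of 6 probe sets of Sf3b2, 5 fell, by 0.57 to 1.35, and the other had a signal of 20.4 and a log2 fold change of -0.46. The probe set of Hnrnpu with the largest rise had 208, 236 and 241 in 12m arrays and 39.7, 37.9 and 55.2 in Ctrl arrays.

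In a few genes the brightest probe set and the others differed in whether they passed. For Hnrnpd, which binds AU-rich RNA, the brightest probe set had 626, 595 and 562 in 12m arrays and 576, 494 and 609 in Ctrl arrays, whereas the next brightest had 483, 463 and 514 against 320, 196 and 178 and rose by 1.12. The dimmest of the 3 had 122, 84.6 and 138 against 38, 34.2 and 42.4 and rose by 1.57. For Hnrnpa1 the brightest probe set had a log2 fold change of -0.0001 and the other 2 rose by 0.62 and 1.07. For Snrpd3, the brightest fell (-0.87) and the other 2 had -0.37 and -0.38 without passing. Which transcript ends these probe sets read was not analysed here. In IH28D against Ctrl28, Srsf6 fell by 0.42 on its brightest probe set, just within the threshold, and the other 3 had -0.02, 0.40 and 0.06. When the probe sets of each gene were averaged, its log2 fold change was 0.0048. For Snrpa1 in the same comparison, the brightest probe set fell by 0.59 and the others had 0.14 and -0.41 without passing. For Prpf19, also in IH28D against Ctrl28, the brightest fell by 0.64 and the others had -0.33, -0.34 and 0.05 without passing.

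**Figure D5:**
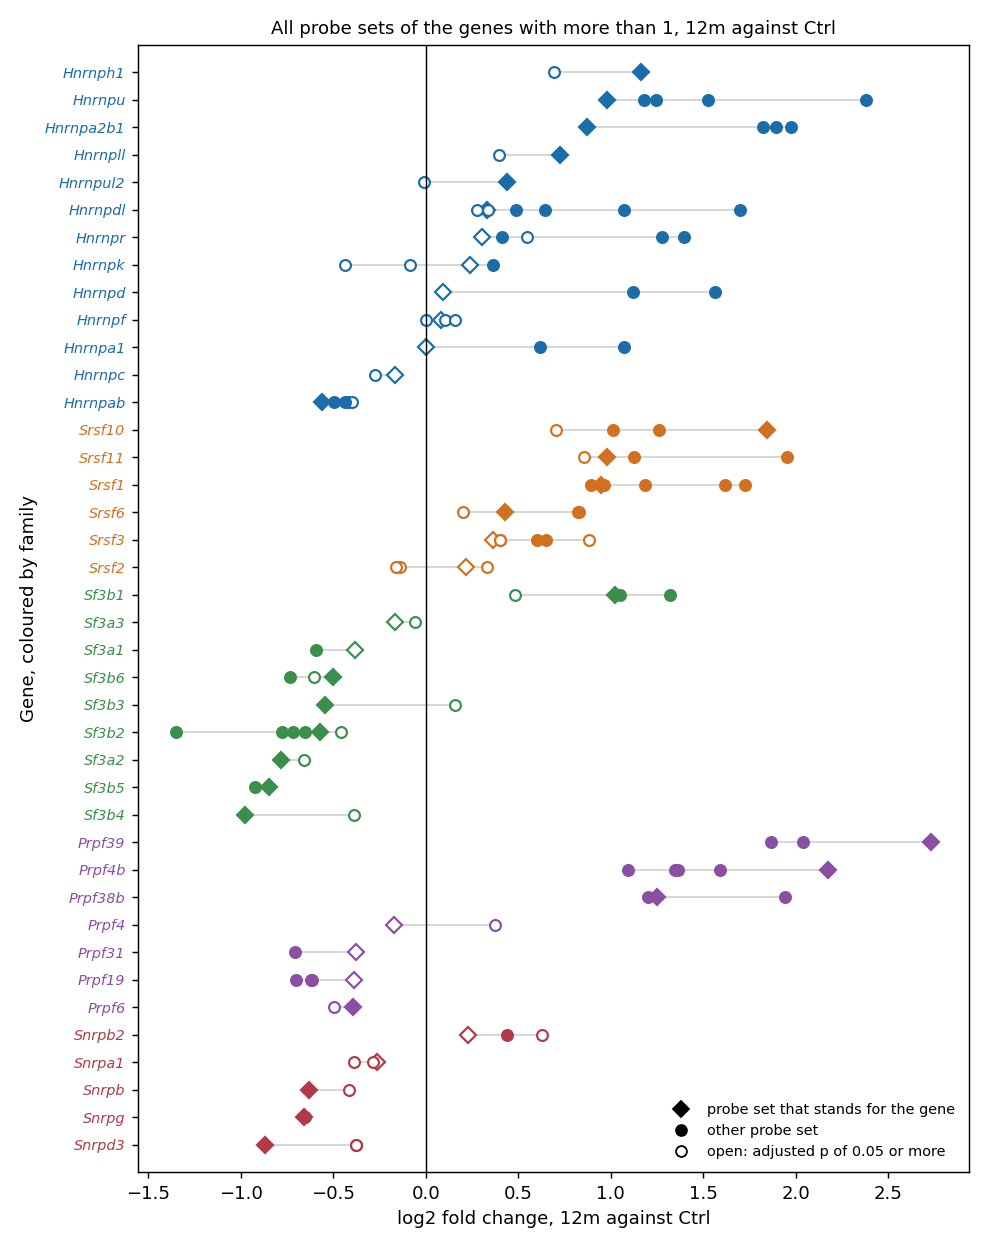
Log2 fold change of 12m against Ctrl (horizontal axis) for every probe set of the 40 genes with more than 1 above the minimum, with a diamond for the probe set that stands for the gene and filled symbols where p adjusted over 19919 probe sets was below 0.05. All filled symbols of a gene lie on the same side of 0, and the spread is wide for Hnrnpu (0.98 to 2.38) and Hnrnpd (0.09 to 1.57).

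Other genes of the pathway were counted in 8 lists, beside all genes, of which 21.7% rose and 31.6% fell in 12m mice, 5.4% and 1.12% in IH5D mice and 4.38% and 1.24% in IH5DR2 mice. Of 20 SR-related proteins tested, 14 rose and 0 fell in 12m mice, and 8 rose and 0 fell in both IH5D and IH5DR2 mice, with a median log2 fold change of 0.94 in 12m mice. They included Pnn (2.15), Luc7l3 (1.93), Luc7l2 (1.69) and Tra2a (1.21), an activator of exon inclusion. Of 24 other splicing regulators, 13 rose and 6 fell in 12m mice, with Taf15 (2.30), Mbnl2 (1.69), Matr3 (1.45) and Tial1 (1.39) among the risers. Of 8 kinases that act on SR proteins, 3 rose (Clk1 2.04, Clk4 1.64 and Srpk2 0.58) and 0 fell. Of 24 snRNP proteins with other names, 3 rose and 12 fell, and of 16 genes of snRNP assembly, 2 rose and 7 fell, among them Prmt5 (-0.90), which methylates Sm proteins, and its partner Wdr77 (-0.65). The catalytic step and Prp19 complex list, with 6 rises and 8 falls of 23, was near the share of all genes. There were 0 rises and 1 fall of 6 in the Lsm ring and 0 and 1 of 4 in the exon junction complex. In IH28D against Ctrl28 (all genes 6.05% rose and 2.45% fell), 2 of the 20 SR-related proteins rose, 1 of the 24 other regulators rose, and 1 of the 24 snRNP proteins rose and 2 fell.

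Promoters of the genes that rose and fell in 12m mice are shown because the members moved in opposite groups. RefSeq start windows (GRCm38.p6, 250 bases before to 50 bases after the start) were at hand for 53 of the 59 genes, and 8 motifs were searched on both strands. These were the ETS core CCGGAAG, the CCAAT box CCAAT, the GC box GGGCGG, the CRE core TGACG, the E-box CACGTG, the hypoxia response core ACGTG (which overlaps the E-box), the TATA box TATAAA and the NRF1 core GCATGCGC. The windows below run from 100 bases before to 50 bases after the start, 5′ to 3′ on the gene's strand, with every match in capitals. Shown are the 3 largest rises and then the 3 largest falls in 12m mice among genes with a window, whatever motifs they hold.
Prpf39 (chr12:65036234-65036383, plus strand): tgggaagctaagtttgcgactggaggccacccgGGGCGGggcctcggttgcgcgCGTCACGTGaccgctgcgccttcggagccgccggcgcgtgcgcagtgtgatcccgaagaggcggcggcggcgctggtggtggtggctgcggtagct
Prpf4b (chr13:34875429-34875578, plus strand): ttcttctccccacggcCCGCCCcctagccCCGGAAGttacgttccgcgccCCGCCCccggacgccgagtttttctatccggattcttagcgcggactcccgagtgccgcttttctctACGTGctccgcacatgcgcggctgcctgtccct
Srsf10 (chr4:135855971-135856120, plus strand): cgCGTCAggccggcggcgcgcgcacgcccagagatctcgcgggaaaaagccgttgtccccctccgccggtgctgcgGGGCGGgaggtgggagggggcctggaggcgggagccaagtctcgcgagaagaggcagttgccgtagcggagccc
Snrpd3 (chr10:75517942-75518091, plus strand): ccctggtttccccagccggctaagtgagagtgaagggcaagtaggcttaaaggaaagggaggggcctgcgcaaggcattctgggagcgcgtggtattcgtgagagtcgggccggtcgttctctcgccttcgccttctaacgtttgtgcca
Sf3a2 (chr10:80798635-80798784, plus strand): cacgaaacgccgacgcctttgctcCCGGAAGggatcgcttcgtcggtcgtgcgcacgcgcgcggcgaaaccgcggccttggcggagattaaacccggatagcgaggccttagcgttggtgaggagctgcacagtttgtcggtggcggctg
Prpf8 (chr11:75486677-75486826, plus strand): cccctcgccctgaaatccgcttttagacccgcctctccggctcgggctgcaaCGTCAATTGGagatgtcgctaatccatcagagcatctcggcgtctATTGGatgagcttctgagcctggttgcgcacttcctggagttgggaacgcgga

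The capitals in Prpf39 are a GC box and a stretch in which a CRE core, the E-box and the hypoxia response core overlap, those in Prpf4b are an ETS core between GC boxes and, after the start, a hypoxia response core, and those in Srsf10 are a CRE core and a GC box. Snrpd3 holds none of the 8 motifs in the stretch shown, the ETS core stands alone in Sf3a2, and Prpf8 holds a CRE core followed directly by a CCAAT box, and another CCAAT box at the start. In the full windows the ETS core was present in 19 of 53 genes (35.85%), against 9.93% of all 27025 genes and 8.86% of all 32851 windows. These 27025 genes were not limited to the genes tested here. The ETS core was present in 9 of 15 genes that fell, 2 of 16 that rose and 8 of 22 that did not pass in 12m mice. By family it was present in 6 of 7 SF3, 4 of 8 Snrp, 4 of 11 Prpf, 3 of 10 SR and 2 of 17 hnRNP genes. The GC box was present in 14 of 16 genes that rose and 8 of 15 that fell (38.2% of all genes), the CRE core in 10 and 6 (23.05%), the hypoxia response core in 8 and 5 (21.78%), and the CCAAT box in 6 and 9 (41.06%). The E-box matched in 3 and 0, the TATA box in 1 and 2, and the NRF1 core in 2 and 0 (8.09%, 15.67% and 3.05% of all genes). A match is a description of the sequence and was not tested against the changes.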

How the data were processed

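Hippocampal RNA of 6 groups was hybridised to 18 Affymetrix Mouse 430 2.0 arrays, 3 per group. The values deposited were log2 MAS5 signals, which the authors computed from probe intensities and scaled to 1 trimmed mean on each array. The MAS5 version is not given in the sources used here. MAS5 scaling fixes the trimmed mean and not the distribution, so the median of all genes can shift between groups. Arrays give no read depth, and the number of arrays limits the precision.

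Probe sets were named through the platform annotation. Of 45101 probe sets, 64 were controls, 34945 had 1 gene, 932 had several and 9160 had no gene listed. The brightest probe set of a gene by mean unlogged signal over all arrays stood for it, and genes with a mean signal above 20 were tested. Group means were fitted to the log2 values of all 18 arrays (limma 3.58.1 with a trended prior, R 4.3.3, 12 residual degrees of freedom), with Benjamini-Hochberg adjustment over 11656 genes and a threshold of 0.05. The fit was tested on simulated data. The methods name Welch's ANOVA on average normalized signals; it was run as a Welch test between the groups compared on unlogged signals, a scale the methods do not state. This was an alternative, as were no minimum signal, log2 of signal plus 16, quantile normalization, median centring, the mean of all probe sets, the compared groups alone, the 3′ to 5′ gap, the replicate number as a block, each array left out, and the other control. Median centring over the genes tested, leaving out both arrays that stand apart, and the block within IH5D and Ctrl alone were added after the data were seen.

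Same-numbered IH5D and Ctrl arrays deviated together from their group means (r = 0.153, 0.289 and 0.239). The labels state no pairing, and the numbers were treated as pairing these arrays only because of this agreement in the same data. The block fit therefore cannot show that the arrays are paired.

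Members, families and lists were chosen with earlier results of these data known. Named genes were, for each family and comparison, up to 2 rises and 2 falls of largest log2 change among those that passed and whose brighter group averaged a signal of 100 or more, plus a fixed set (Hnrnpa1, Hnrnpa2b1, Hnrnpc, Hnrnpd, Hnrnpk, Hnrnpu, Srsf1, Srsf2, Srsf3, Srsf5, Srsf7, Srsf10, Srsf11, Sf3b1, Prpf8, Prpf39, Prpf4b, Snrpn, Snrpb, Snrpa and Snrpc). Any other member named was chosen after its values were seen. Promoter windows came from RefSeq (GRCm38.p6), and the rule for those printed was set after motif matches had been seen. No authors' fold changes or p-values were used.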

Additional observations from a re-analysis of the deposited data

Results flagged for a closer look

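The change in IH28D mice against Ctrl28 mice differed from the change in IH5D mice against Ctrl mice for 10 of the 59 genes by the limma contrast of both differences (4 more positive and 6 more negative after 28 days, all genes 6.57% and 3.08%). The difference on the log2 scale was 1.41 for Snrpn, 1.03 for Prpf40b, 1 for Prpf8 and 0.84 for Hnrnpl. It was -0.89 for Srsf6, -0.70 for Srsf1, -0.58 for Snrpa1 and -0.57 for Hnrnpa2b1. Hnrnpll and Hnrnpdl, named after their values were seen, also passed. The 2 changes rest on different controls, and Ctrl28 and Ctrl mice themselves differed in Snrpn, Prpf8, Hnrnpl, Prpf40b, Srsf6, Srsf1 and Hnrnpa2b1. The count of 10 was 30 without Ctrl28 array 1, 5 without IH5D array 3, and 6 without Ctrl array 2, Ctrl array 3, Ctrl28 array 3 or IH28D array 1. The part of the controls in these differences was not tested.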

How the results depend on the processing

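The counts of splicing factor genes that passed were 37 in 12m mice, 32 between Ctrl28 and Ctrl mice, 10 in IH5D mice, 7 in IH5DR2 mice, 0 between IH5DR2 and IH5D mice, 7 in IH28D mice and 10 for the difference of the 28-day and 5-day changes. With median centring over all probe sets they were 3 in IH5D mice (all genes 1.72% rose and 0.472% fell). In IH5DR2 mice the count was then 2 (1.06% and 0.343%) and in IH28D mice 4 (2.5% and 1.27%). With the mean of all probe sets of a gene they were 5 in IH5D mice (all genes 2.88% rose and 0.678% fell). In IH5DR2 mice the count was then 2 (2.03% and 0.789%), in IH28D mice 4 (6.21% and 1.41%) and for the difference 6. The log2 fold change of Srsf6 in IH28D mice turned from negative to 0.0048. With the gap of 3′ and 5′ controls as a covariate they were 30 in IH5D mice (all genes 14.7% rose and 10.3% fell). In IH5DR2 mice the count was then 26 (13.8% and 8.7%), in IH28D mice 14 (11% and 4.94%) and for the difference 30. Without both arrays that stand apart they were 28 in IH5D mice (all genes 15.6% rose and 11.7% fell). In IH5DR2 mice the count was then 28 (15.5% and 11.1%), in IH28D mice 14 (12.9% and 5.38%) and for the difference 32. The fit of the compared groups alone gave 19 in IH5D, 25 in IH5DR2, 0 in IH28D and 11 in Ctrl28 mice and 6 for the difference. The Welch test on unlogged signals without adjustment gave 23 in IH5D, 27 in IH5DR2, 6 between IH5DR2 and IH5D, 4 in IH28D and 12 in Ctrl28 mice, and after Benjamini-Hochberg 14 in 12m mice and 0 in IH5D, IH5DR2, IH28D and Ctrl28 mice. With Ctrl in place of Ctrl28 the IH28D count was 27, and with Ctrl28 in place of Ctrl the 12m count was 14 and the IH5D count 4. The replicate block gave 4 in IH5DR2 mice over all arrays (all genes 2.37% rose and 0.549% fell). It gave 36 in IH5D mice when IH5D and Ctrl were fitted alone (all genes 16.7% and 18.4%). The other counts stayed within 1.5 times. In all groups, IH5D and Ctrl included, the labels of the samples share only a number. Leaving out 1 array gave 0 to 25 in IH5D, 0 to 25 in IH5DR2, 3 to 13 in IH28D, 30 to 46 in 12m and 18 to 43 in Ctrl28 mice, and 5 to 30 for the difference. The cause of these shifts was not tested. For the compared groups alone, the Welch test and the difference under these alternatives, the share of all genes is not given here. A count without that share is not a result about these genes. Of 2044 values of 73 named changes under all alternatives, 1772 kept their direction and passed, 271 kept their direction without passing, and 1 turned.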
